A study of Mus musculus with 5 samples.

Results

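Nuclear pore and nuclear transport genes were measured in pro-B cells of control mice and of mice with a deletion of *Mef2c*, a transcription factor of lymphoid cells. The genes were taken by name: nucleoporins whose symbol is Nup and a number, importins alpha and beta (Kpna, Kpnb and Ipo genes), exportins (Xpo genes), *Tpr*, *Ranbp2*, *Seh1l* and *Rae1*. The rule found 37 genes of the 17325 that had 1 gene symbol on the array, each with 1 probe set. *Tpr* and *Seh1l* were not among them and were not analysed here. The pro-B cells were gated as B220+IgM-CD43+CD24+ in marrow of mice aged 9 months, and their RNA was hybridised to 5 Affymetrix Mouse Genome 430 2.0 arrays. There were 3 control arrays and 2 arrays from Vav-Cre Mef2cfl/fl mice, called *Mef2c*-deficient here. The labels give no alleles for the control arrays. Per the study's methods, controls were age-matched and carried Mef2cfl/fl or Mef2cfl/+ without Cre, or Vav-Cre with Mef2cfl/+, so that a control may hold Cre and 1 deleted allele. Vav-Cre deletes a floxed gene throughout the haematopoietic system, so that the deletion is not limited to B cells. The sources used here do not say whether an array held RNA of 1 mouse or of pooled mice, and p-values measure the spread between these arrays.

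The nuclear pore is a ring-shaped channel through the nuclear envelope, assembled from many copies of a set of nucleoporins: outer and inner rings form the scaffold, phenylalanine-glycine nucleoporins fill the central channel, and filaments face the cytoplasm and the nuclear basket. Importins carry proteins with a nuclear localisation signal into the nucleus, exportins carry proteins and RNAs out, and the small GTPase Ran sets the direction of both. Dividing lymphoid progenitors take the pore apart and rebuild it at each mitosis.

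Values are given as log2 signal, on which a difference of 1 is a 2-fold difference in signal. The deposited values reached far beyond what a 16-bit scanner can record, and appear to be e raised to the log2 signal. Their natural logarithm was therefore read as log2 signal. If they are linear signals instead, every log2 difference given here is too small, and the direction is the same. A gene was called as fallen or risen at a fold of at least 2 in signal and an unadjusted p of at most 0.05, from limma fitted over all 17325 genes. No gene on the array had an adjusted p under 0.05, against 5593 at an unadjusted p of at most 0.05, so every call below rests on the unadjusted p.

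*Mef2c* itself was at 9.55, 9.95 and 9.75 on the control arrays and at 8.91 and 8.74 on the *Mef2c*-deficient arrays. Control and *Mef2c*-deficient values did not overlap, and the log2 fold change was −0.93 (SE 0.20, adjusted p = 0.0918), just short of the fold threshold. Signal of the *Mef2c* probe set thus remained on both *Mef2c*-deficient arrays, and the sources do not say whether its probes lie in the deleted part. Of the B lineage markers, 9 of 12 were measured, at the 95.1st to 99.9th percentile of mean log2 signal, and *Cd79a*, a signalling chain of the B cell receptor, was between 11.94 and 12.46 on all 5 arrays. Neutrophil markers were also bright on every array, with a summed signal of 42036 to 72197 on control arrays and of 42627 and 82475 on *Mef2c*-deficient replicates 1 and 2. T and NK cell markers summed to 891 to 1058 on control arrays and to 741 and 2314 on the *Mef2c*-deficient ones, and 6 of the 8 measured were highest on *Mef2c*-deficient replicate 2. On that array plasmacytoid dendritic cell markers summed to 3344 and erythroid markers to 336, against 990 to 2380 and 124 to 136 on the others. The B lineage markers summed to 18327 there and to 22527 to 35490 on the others. Of the 9 measured, 3 (*Ebf1*, *Blnk* and *Cd24a*) were lowest on that array and 0 were highest. *Rag1* and *Dntt* encode enzymes of antigen receptor assembly. They were at 9.95 and 10.48 on that array, within the control ranges of 9.50 to 11.86 and 9.05 to 11.75. On *Mef2c*-deficient replicate 1 *Dntt* was at 8.02, below its control range. *Igll1*, at 10.13 and 10.18, and *Spn*, at 9.47 and 10.02, were below every control value on both *Mef2c*-deficient arrays. The fitted estimate was below 0 for 7 of the 9 B lineage markers, and 0 were called. The bacterial hybridisation controls were 1.86 above the control mean on *Mef2c*-deficient replicate 1, and −0.61 to 0.50 from it on the other arrays. The part of these differences in the results below was not tested.

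Of the 37 nuclear pore and transport genes, 16 (43.2%) fell in *Mef2c*-deficient pro-B cells, 0 rose and 21 were not called by limma. Over all genes, 10.6% fell and 4.34% rose. The estimate was below 0 for 35 of the 37 genes. Their median log2 fold change was −0.89, against 0.03 over all genes. For 30 of the 37 (81.1%) the groups did not overlap, with the *Mef2c*-deficient arrays lower, against 28.4% of all genes. No gene of the set was higher without overlap. An unadjusted p of at most 0.05 with a lower level was reached by 23 (62.2%), against 19.0% of all genes. The adjusted p was at most 0.10 with a lower level for 11 genes, against 8.16% of all genes. Its smallest value in the set, 0.0895, was also the smallest on the whole array. In bulk RNA, fewer cells of a type and less RNA per cell cannot be told apart.

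**Figure D1:**
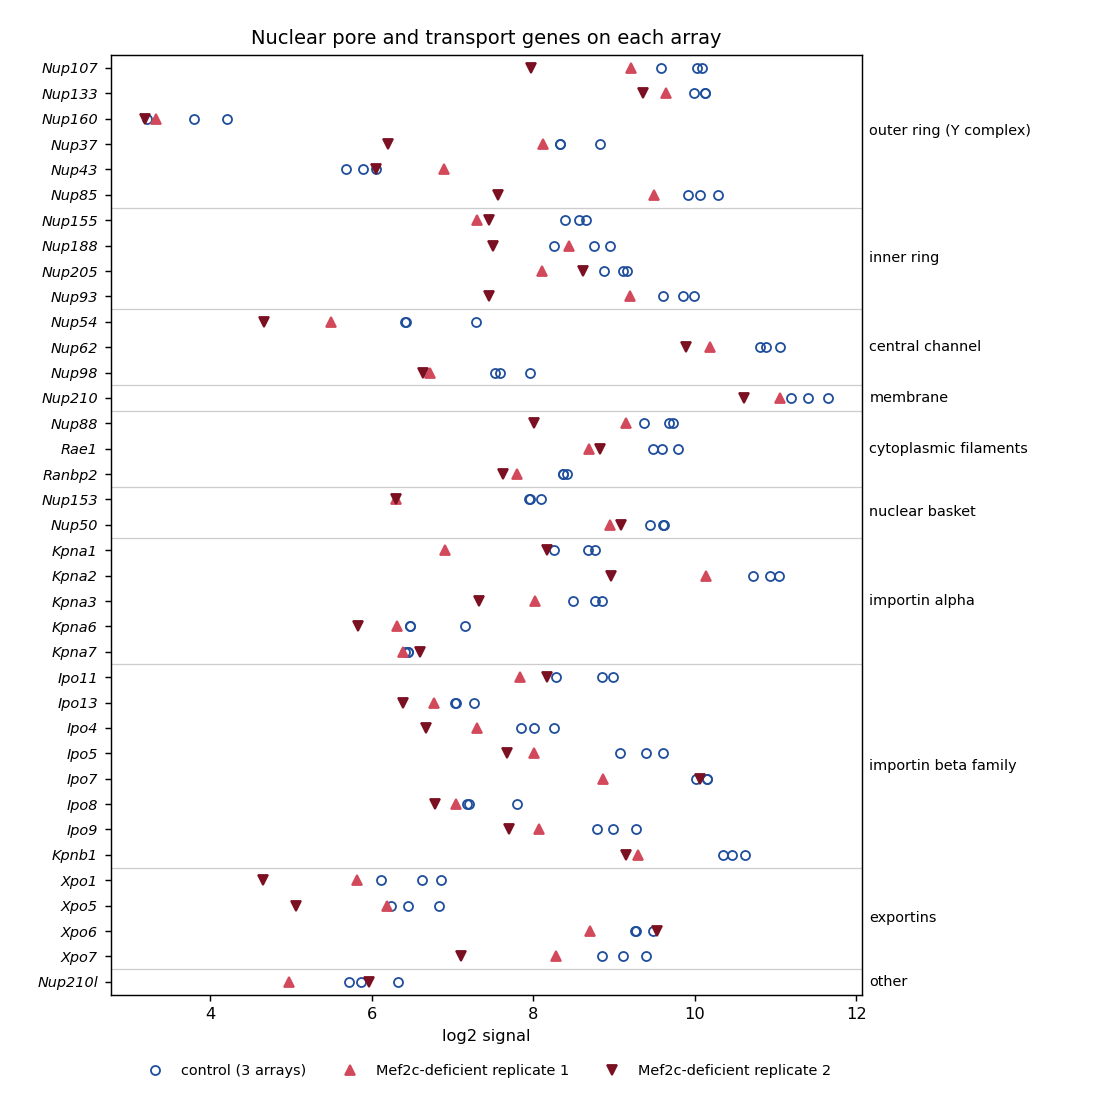
Log2 signal (x axis) of each of the 37 nuclear pore and transport genes (rows, grouped by role) on the 3 control arrays (open circles) and on Mef2c-deficient replicates 1 and 2 (upright and inverted triangles), with no further scaling between arrays. For 30 genes both triangles lie to the left of every circle, and for Nup43 neither triangle lies to the left of a circle.

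The probe sets of these genes were bright, and brightness moved with the fold change across the whole array. Brightness depends on the probes as well as on the transcript. The median gene of the set stood at the 84.3rd percentile of mean log2 signal, and *Nup160* alone was below the median gene of the array. In 10 groups of genes by mean log2 signal, the median log2 fold change was 0.43 in group 1, the dimmest, −0.76 in group 9 and −0.63 in group 10, and groups 9 and 10 together held 23 of the 37 genes. The comparison was therefore repeated among genes of like brightness, with a mean log2 signal of 7.20 to 9.27, the range of the middle 19 nuclear pore and transport genes. Of these 19, 10 (52.6%) fell, against 23.8% of the 3770 genes in the range. Their median log2 fold change was −1.02 and that of the range was −0.74. Non-overlapping lower levels were found for 17 of the 19 (89.5%), against 61.5% of the range. Lower signal on both *Mef2c*-deficient arrays was thus usual at this brightness, and these are descriptions of the set with no test.

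**Figure D2:**
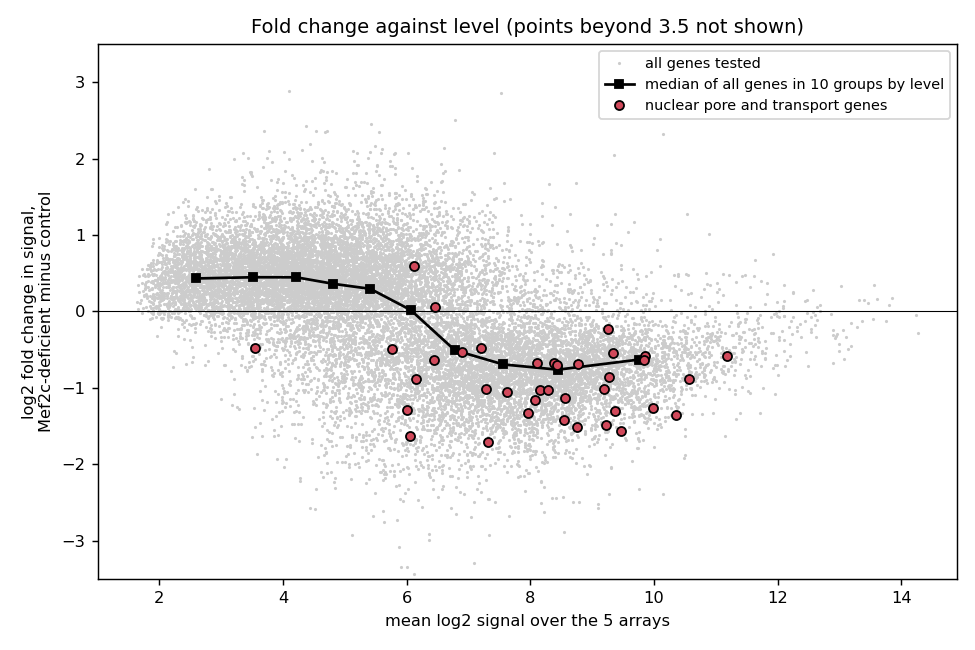
Log2 fold change (y axis, Mef2c-deficient minus control) against mean log2 signal over the 5 arrays (x axis) for all genes (grey) and for the nuclear pore and transport genes (coloured), as deposited and with no further scaling. The coloured points lie mostly in the brighter part of the array, where the median of all genes is also below 0, at −0.76 in group 9 of 10.

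In the nuclear basket, the filaments that face the nucleoplasm, *Nup153* had the narrowest range of estimates of the 37 genes when single arrays were left out. *Nup153*, a basket nucleoporin that binds importins and anchors other basket proteins, was at 7.96, 8.10 and 7.95 on the control arrays and at 6.30 and 6.30 on the *Mef2c*-deficient arrays. The groups were widely apart and the arrays within each nearly equal. Its signal fell 3.26-fold (log2 fold change −1.70, SE 0.16, adjusted p = 0.0895). With each array left out in turn the estimate was −1.73 to −1.66, and the call was kept in every setting tried. The other basket gene, *Nup50*, a cofactor of importin alpha, was lower by 0.54 on the log2 scale and was not called.

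In the central channel, 2 of 3 genes fell. *Nup54*, which forms the channel together with Nup62, was at 6.42, 6.41 and 7.29 on the control arrays and at 5.50 and 4.67 on the *Mef2c*-deficient arrays. The groups did not overlap, and both *Mef2c*-deficient values lay below the median gene of their array; the log2 fold change was −1.63 (SE 0.41, adjusted p = 0.0978). *Nup98*, whose transcript encodes both a channel nucleoporin and the outer ring protein Nup96, was at 7.53, 7.59 and 7.96 on the control arrays and at 6.72 and 6.64 on the *Mef2c*-deficient arrays. It fell 2.02-fold, just past the fold threshold, with little spread in either group (log2 fold change −1.01, SE 0.21, adjusted p = 0.0907). *Nup62*, the defining nucleoporin of the channel, was bright, at 11.05, 10.88 and 10.81 on the control arrays and at 10.18 and 9.89 on the *Mef2c*-deficient arrays. The groups did not overlap, but the difference of −0.88 (SE 0.19, adjusted p = 0.0925) was 1.84-fold and was not called. The probe set of *Nup62* is one that the manufacturer marks as sharing probes with other sequences. Those of *Nup153*, *Nup54*, *Nup107* and *Kpna1* carry another mark of the manufacturer, for probes that match several transcripts.

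The outer ring, or Y complex, covers both faces of the pore. *Nup107*, its core subunit, was at 10.03, 9.58 and 10.09 on the control arrays and at 9.21 and 7.97 on the *Mef2c*-deficient arrays. *Nup85*, another subunit of the Y, was at 10.29, 10.06 and 9.92 on the control arrays and at 9.49 and 7.56 on the *Mef2c*-deficient arrays. Neither gene overlapped between groups, and in both *Mef2c*-deficient replicate 2 was by far the lower. *Nup107* fell 2.48-fold (log2 fold change −1.31, SE 0.42, adjusted p = 0.123) and *Nup85* 2.96-fold (log2 fold change −1.56, SE 0.59, adjusted p = 0.148). The remaining 4 subunits were not called. *Nup37* had a difference of similar size, −1.33, but a larger error (SE 0.60, adjusted p = 0.189), since it was at 8.12 on 1 *Mef2c*-deficient array and at 6.20 on the other. *Nup133* was lower by 0.58 and *Nup160* by 0.48, the latter from a dim probe set whose groups overlapped. *Nup43* was the only member with a clearly positive estimate, 0.60 (SE 0.31, adjusted p = 0.225), and its *Mef2c*-deficient values of 6.90 and 6.05 overlapped the control values of 5.68 to 6.05.

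The inner ring joins the membrane to the channel, and 2 of its 4 genes fell. *Nup155*, which contacts the membrane, was at 8.66, 8.40 and 8.57 on the control arrays and at 7.30 and 7.45 on the *Mef2c*-deficient arrays. The arrays of each group lay close together, and the log2 fold change was −1.16 (SE 0.18, adjusted p = 0.0895). *Nup93*, the hub of the ring, was at 9.98, 9.86 and 9.60 on the control arrays and at 9.20 and 7.45 on the *Mef2c*-deficient arrays. Its fall of 2.81-fold (log2 fold change −1.49, SE 0.54, adjusted p = 0.140) came mostly from *Mef2c*-deficient replicate 2. The large scaffold proteins *Nup188* and *Nup205* were lower by 0.68 and 0.69 and were not called. *Nup210*, a membrane nucleoporin and the brightest gene of the set, had a log2 fold change of −0.58 (SE 0.24) and was not called. *Nup210l*, its relative, was lower by 0.50 with overlapping groups.

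On the cytoplasmic face 1 of 3 genes fell. *Nup88*, which anchors the filaments, was at 9.73, 9.38 and 9.68 on the control arrays and at 9.15 and 8.01 on the *Mef2c*-deficient arrays. It fell 2.02-fold, with a difference between the *Mef2c*-deficient arrays larger than that between their upper value and the lowest control (log2 fold change −1.01, SE 0.38, adjusted p = 0.147). *Ranbp2*, the filament nucleoporin that binds Ran, was at 8.37, 8.36 and 8.41 on the control arrays and at 7.80 and 7.63 on the *Mef2c*-deficient arrays. Both groups were tight and apart, but the difference of −0.67 (SE 0.16, adjusted p = 0.0961) was under 2-fold, and it vanished, at 0.012, after cyclic loess scaling. *Rae1*, an mRNA export factor that partners Nup98, was lower by 0.86 and was also short of the fold threshold.

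**Figure D3:**
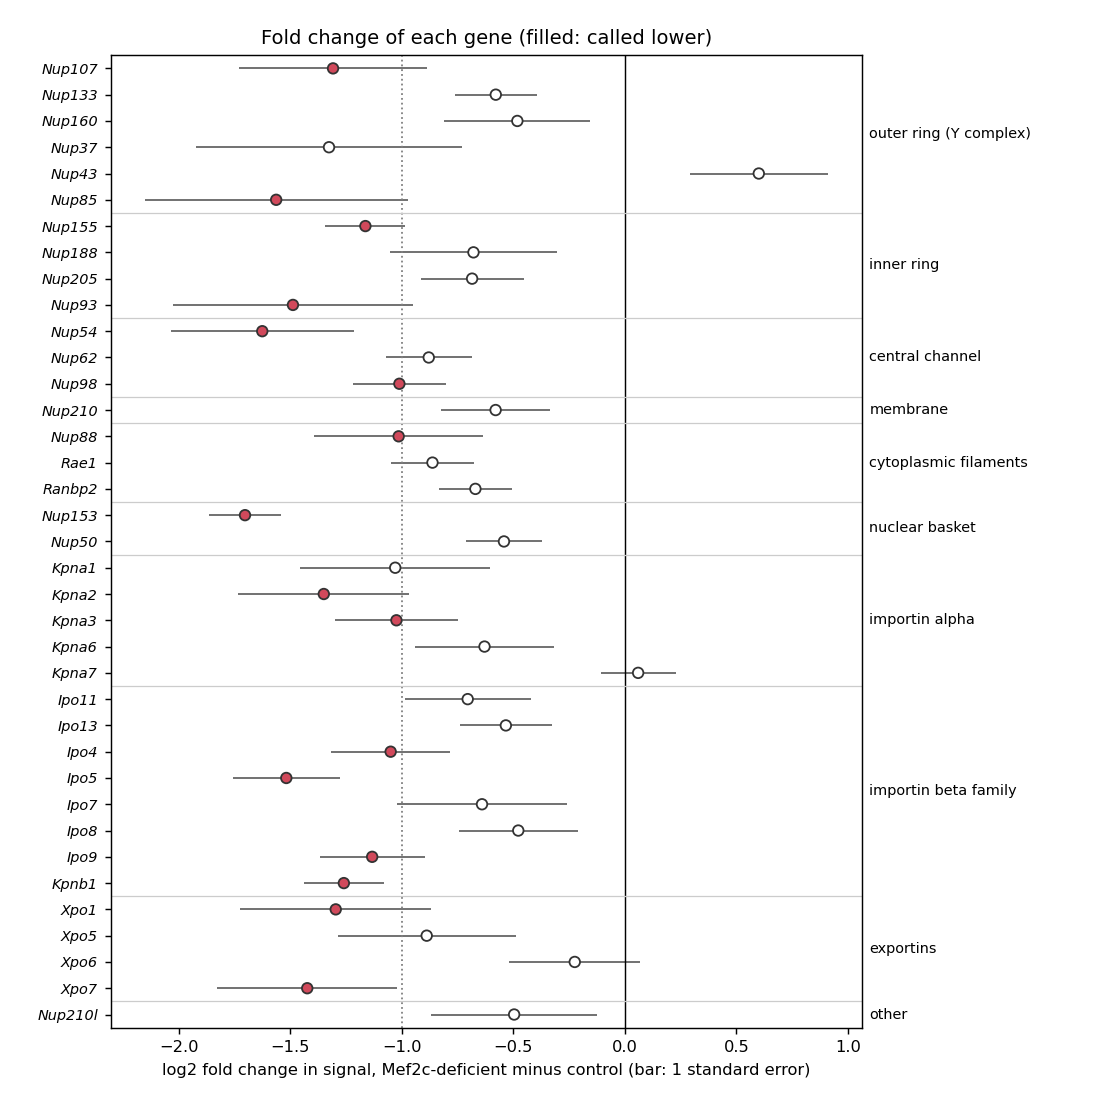
Log2 fold change (Mef2c-deficient minus control) of the 37 nuclear pore and transport genes from limma over the 5 arrays, with no further scaling. Bars show 1 standard error to each side, which is narrower than a 95% confidence interval, and filled points were called. The called genes lie between −1.70 and −1.01, and 2 genes, Kpna7 and Nup43, have estimates above 0.

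Of the import receptors, 6 of 13 fell and 0 rose. *Kpnb1*, importin beta itself, which carries the importin alpha and cargo complex through the pore, was at 10.47, 10.35 and 10.62 on the control arrays and at 9.30 and 9.14 on the *Mef2c*-deficient arrays. The groups lay more than 1 unit apart, and *Kpnb1* fell 2.40-fold (log2 fold change −1.26, SE 0.18, adjusted p = 0.0895). *Ipo5*, a carrier of ribosomal proteins and histones, was at 9.39, 9.61 and 9.08 on the control arrays and at 8.01 and 7.68 on the *Mef2c*-deficient arrays. It fell 2.87-fold with both arrays contributing (log2 fold change −1.52, SE 0.24, adjusted p = 0.0895). *Ipo9*, a histone importer, was at 8.79, 8.99 and 9.27 on the control arrays and at 8.07 and 7.70 on the *Mef2c*-deficient arrays. *Ipo4*, which also imports histones, was at 8.25, 8.01 and 7.84 on the control arrays and at 7.30 and 6.67 on the *Mef2c*-deficient arrays. Neither overlapped between groups, and the falls were 2.19-fold for *Ipo9* (log2 fold change −1.13, SE 0.24, adjusted p = 0.0907) and 2.07-fold for *Ipo4* (log2 fold change −1.05, SE 0.27, adjusted p = 0.0988). The other beta importins, *Ipo7*, *Ipo8*, *Ipo11* and *Ipo13*, had estimates of −0.71 to −0.48 and were not called. *Ipo7* was at 8.86 and 10.06 on the *Mef2c*-deficient arrays, against 10.01 to 10.15 on the control arrays.

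Importin alpha proteins are the adaptors that read the nuclear localisation signal. *Kpna2*, the form that is abundant in dividing cells, was at 11.04, 10.93 and 10.73 on the control arrays and at 10.13 and 8.96 on the *Mef2c*-deficient arrays. *Kpna3* was at 8.85, 8.76 and 8.49 on the control arrays and at 8.02 and 7.33 on the *Mef2c*-deficient arrays. Both were lower on both *Mef2c*-deficient arrays than on any control array, and fell, *Kpna2* 2.55-fold (log2 fold change −1.35, SE 0.38, adjusted p = 0.108) and *Kpna3* 2.03-fold (log2 fold change −1.02, SE 0.28, adjusted p = 0.104). *Kpna1* had an estimate of the same size as *Kpna3*, −1.03, with an adjusted p of 0.168, and was at 6.90 and 8.17 on the *Mef2c*-deficient arrays, in the opposite order to *Kpna2* and *Kpna3*. *Kpna6* was lower by 0.63 and not called. *Kpna7*, known as the importin alpha of oocytes and early embryos, had an estimate of 0.06 with overlapping groups, and its 95% confidence interval ran from −0.37 to 0.49.

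Of the exportins, 2 of 4 fell. *Xpo1*, which exports proteins with a leucine-rich signal, was at 6.63, 6.11 and 6.85 on the control arrays and at 5.81 and 4.65 on the *Mef2c*-deficient arrays. Its mean log2 signal was only at the 54.3rd percentile, and on *Mef2c*-deficient replicate 2 *Xpo1* lay below the median gene of the array. *Xpo7*, an exportin with a broad range of cargo, was at 9.11, 8.85 and 9.39 on the control arrays and at 8.28 and 7.10 on the *Mef2c*-deficient arrays. Neither gene overlapped between groups, and *Mef2c*-deficient replicate 2 was the lower by more than 1 unit in both. *Xpo1* fell 2.46-fold (log2 fold change −1.30, SE 0.43, adjusted p = 0.126) and *Xpo7* 2.68-fold (log2 fold change −1.42, SE 0.40, adjusted p = 0.108). *Xpo5*, the exportin of microRNA precursors, had an estimate of −0.89 (adjusted p = 0.189) and was not called. *Xpo6*, the exportin of actin, had an estimate of −0.23 with a 95% confidence interval of −0.98 to 0.53.

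The *Mef2c*-deficient arrays differed from each other in this set. Replicate 2 was lower than replicate 1 by a median of 0.33 over the 37 genes, against 0.08 over genes of like brightness. A gap of over 1 in that direction was seen for 9 of the 37 (24.3%), against 16.3% of genes of like brightness, and for 7 of the 16 that fell: *Nup107*, *Nup85*, *Nup93*, *Nup88*, *Kpna2*, *Xpo1* and *Xpo7*. The opposite gap was seen for *Ipo7* and *Kpna1*. Without *Mef2c*-deficient replicate 2, the array with the higher T and NK cell markers, 6 of the 37 fell: *Ipo5*, *Ipo7*, *Kpna1*, *Kpnb1*, *Nup153* and *Nup155*, and *Nup43* rose. Of all genes, 8.72% fell and 11.2% rose in that fit. Without *Mef2c*-deficient replicate 1, the array with the higher hybridisation controls, 20 fell, against 14.6% of all genes. In these fits the lone *Mef2c*-deficient array was assumed to vary like the control arrays. Without control replicate 1, 2 or 3, the numbers were 7, 11 and 9, against 8%, 8.85% and 7.04% of all genes.

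**Figure D4:**
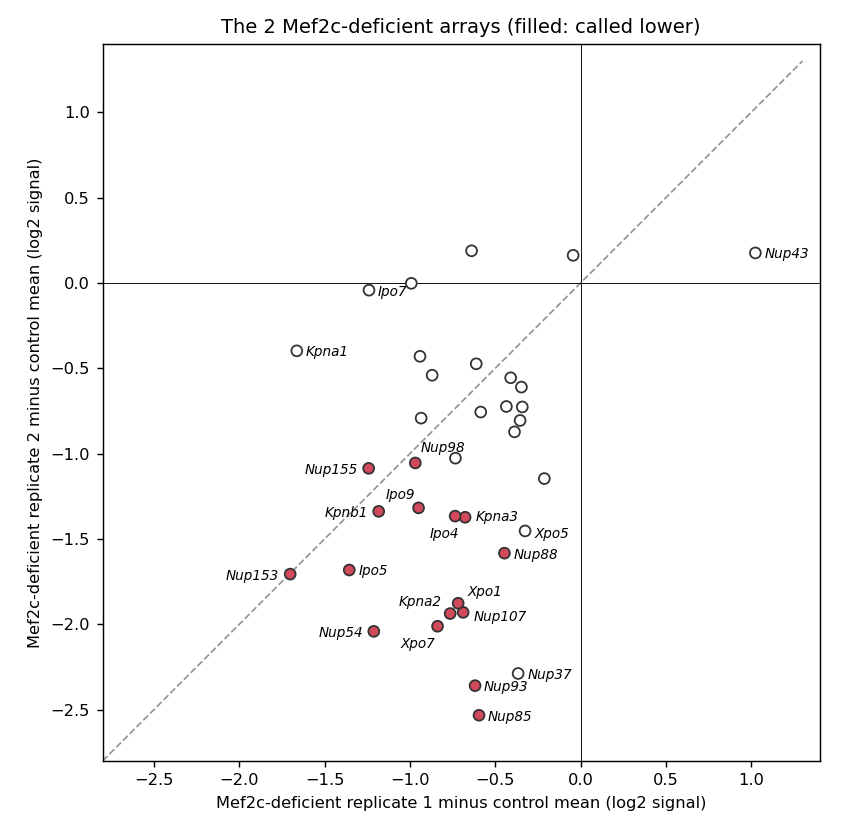
Level of each of the 37 nuclear pore and transport genes on Mef2c-deficient replicate 1 (x axis) and replicate 2 (y axis), each minus the control mean, in log2 signal with no further scaling; the dashed line marks equal values and filled points were called. Nup153, Nup155 and Kpnb1 lie near the line, whereas Nup85 and Nup93 lie far below it.

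*Nup153*, *Nup155*, *Kpnb1* and *Ipo5* were the 4 genes called with all arrays and with each array left out. The share of all genes called in this way is not given here. After quantile normalization, cyclic loess or housekeeping centring, *Nup153* alone of the 4 kept its call. For orientation, the 150 bases before the annotated start of each of the 4 genes are shown 5′ to 3′ on the strand of the gene. They are from RefSeq (build GRCm38.p6), where *Ipo5* has a further start that is not shown. Capitals mark matches to the motifs named below, on either strand.
Nup153, chr13:46727850-46727999, minus strand: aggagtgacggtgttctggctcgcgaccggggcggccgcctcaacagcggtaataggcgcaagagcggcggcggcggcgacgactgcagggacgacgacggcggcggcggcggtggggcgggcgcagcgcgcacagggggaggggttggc
Nup155, chr15:8109163-8109312, plus strand: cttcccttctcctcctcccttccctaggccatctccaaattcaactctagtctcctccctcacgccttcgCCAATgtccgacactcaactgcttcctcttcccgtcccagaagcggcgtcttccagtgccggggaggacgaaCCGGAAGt
Kpnb1, chr11:97187893-97188042, minus strand: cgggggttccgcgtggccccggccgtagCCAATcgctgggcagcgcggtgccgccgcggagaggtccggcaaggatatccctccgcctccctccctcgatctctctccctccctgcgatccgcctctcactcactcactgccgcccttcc
Ipo5, chr14:120911044-120911193, plus strand: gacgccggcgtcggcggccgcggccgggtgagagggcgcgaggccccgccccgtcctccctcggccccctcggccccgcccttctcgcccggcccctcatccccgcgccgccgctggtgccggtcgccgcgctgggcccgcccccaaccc
*Nup155* holds 1 CCAAT, the letters of NF-Y, and 1 CCGGAAG, the core of ETS factors, and *Kpnb1* 1 CCAAT. RefSeq promoter windows, from 250 bases before to 50 after the start, were matched for 30 of the 37 genes, which had 35 windows. No window was matched for *Kpna1*, *Kpna3*, *Kpna6*, *Nup43*, *Nup85*, *Nup210l* and *Xpo7*. CCAAT was found in 18 of the 35 windows (51.4%) and in 37.4% of all 32851 windows. CCGGAAG was found in 7 (20%) and in 8.86% of all, and GCATGCGC, the NRF1 motif, in 4 (11.4%) and in 2.71% of all. The E2F motif TTTCCCGC was in 1 window and TTTGGCGC in 0, against 1.07% and 0.514% of all windows. The motif of MEF2 factors was found in 1 window, of *Nup160* (2.86%), against 3.19% of all windows. Both strands were searched, and a match is a string of letters and no evidence of binding.

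The other genes of nuclear transport were counted in the same way from lists that the name rule does not reach, against 10.6% of all genes that fell and 23.8% of genes in the brightness range above. Of 8 further nucleoporins, 3 fell and 0 rose. They were *Ndc1*, the membrane anchor of the pore (log2 fold change −1.44), *Gle1*, an activator of mRNA export (−1.62, from a dim probe set), and *Aaas*, which encodes aladin (−1.16). Of 7 other karyopherins, 2 fell and 0 rose: *Tnpo3*, the importer of SR splicing factors (log2 fold change −1.30), and *Cse1l*, which returns importin alpha to the cytoplasm (−1.19). Of the Ran cycle, 6 of 9 listed genes were measured and 3 fell: *Rangrf* (log2 fold change −1.62), *Rangap1*, the Ran GTPase activator (−1.13), and *Rcc1*, the Ran exchange factor (−1.91), the last with 8.24 on 1 *Mef2c*-deficient array and 6.18 on the other. *Ran* itself, at 12.42 in control and 12.16 in *Mef2c*-deficient pro-B cells, had an estimate of −0.26 and was not called.

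Of 18 mRNA export genes measured, 3 fell and 2 rose. Their median brightness was at the 86.3rd percentile, and in groups 9 and 10 of all genes by brightness 24.5% and 16.6% fell. *Thoc1*, a THO complex subunit, had the steepest fall (log2 fold change −2.33), followed by *Mcm3ap*, the GANP scaffold (−1.50), and *Chtop* (−1.26). *Ddx39b*, the UAP56 helicase, rose by 1.09 and *Eny2* by 1.07 on the log2 scale, both from levels below the median gene of the control arrays. Of 13 genes of the nuclear lamina and envelope, 0 were called by limma in either direction, where 10.6% of all genes fell and 4.34% rose. An unadjusted p of at most 0.05, with falls and rises counted together, was reached by 3 of these 13 and by 13 of the 18 mRNA export genes. It was reached by 5 of the 8 further nucleoporins, 4 of the 7 other karyopherins and 5 of the 6 Ran cycle genes. The share of all genes, 32.3%, also pools both directions and was not matched for brightness. The median log2 fold change of the 13 lamina and envelope genes was −0.36, with *Lmnb1*, lamin B1, at −0.25 and *Lbr*, the lamin B receptor, at −0.13. Estimates of these genes ran from −0.83 for *Tmpo* to 0.86 for *Lmna*, and 9 of the 13 were below 0. Whether the lists differ from each other was not tested.

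The number of calls changed with some of the scalings between arrays. Median centring changed it little, with 17 fallen, against 11.6% of all genes. After further quantile normalization or cyclic loess, 3 of the 37 genes fell, *Nup153*, *Nup54* and *Xpo1* in both, with medians of −0.45 and −0.40 over the set, where 5.14% and 5.1% of all genes fell. The estimate was below 0 for 31 and for 25 of the 37. The 10 housekeeping genes measured had a median log2 fold change of −0.68 in the main fit. Of these 10, 8 had estimates below 0, 2 fell and 0 rose. Centring the arrays on these genes moved the median of all genes from 0.03 to 0.57. With this centring the median of the set was −0.35, *Nup153* and *Nup54* fell and *Nup43* rose by 1.14. Of all genes, 2.26% fell and 26.5% rose in that fit. With the fold of 2 taken on the deposited values, a 1.62-fold difference in signal, 18 fell, *Nup62* and *Rae1* being added, against 16.7% of all genes.

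**Figure D5:**
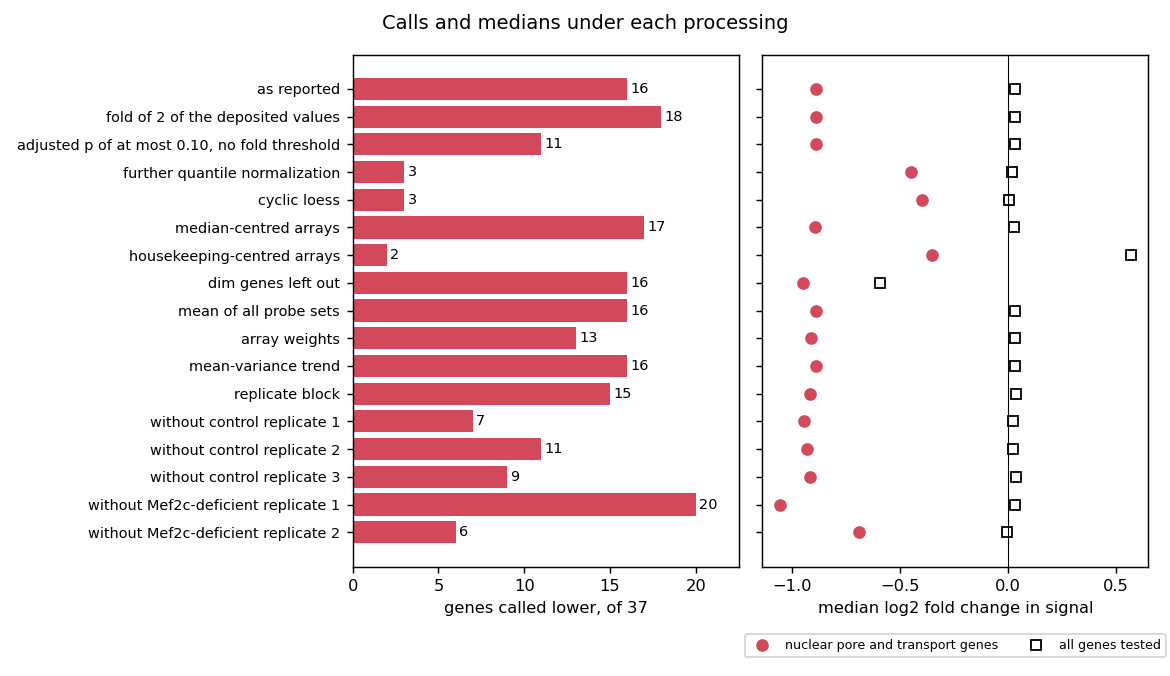
Number of the 37 nuclear pore and transport genes called as fallen (left, x axis), and their median log2 fold change (right, x axis, circles) beside that of all genes (squares), under the main setting and each alternative. The number that fell ranges from 2 with housekeeping-centred arrays to 20 without Mef2c-deficient replicate 1, and the median of the set is below 0 and below that of all genes in every setting shown.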

How the data were processed

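Per the labels and the study's methods, RNA of sorted pro-B cells was hybridised to Affymetrix arrays. The authors normalised the arrays by RMA and left out probe sets called absent or marginal in more than 4 replicates. The deposited intensities were log-transformed by natural logarithm and read as log2 signal (see the scale above). Of 23835 probe sets, 17623 had 1 gene symbol, 516 several and 5696 none listed. The brightest probe set of each symbol was kept, giving 17325 genes. *Mef2c*-deficient and control arrays were compared in limma (version 3.58.1, R 4.3.3; lmFit and eBayes, no covariates), with Benjamini-Hochberg adjustment over all genes. The fit was tested on simulated data whose changes were larger than those of the called members. The simulation held no shift with brightness, so it cannot vouch for the calls given here. The number of arrays limits the precision. Values per array were given for every called gene and for *Nup107*, *Nup98*, *Nup62*, *Nup153*, *Ranbp2*, *Kpnb1*, *Kpna2* and *Xpo1*. Other members named were picked after their values were seen. Of each pathway list, at most 4 called genes were named, by lowest unadjusted p, and uncalled ones were picked after their values were seen. The members and lists were chosen with earlier results of these data known. Alternatives covered the fold scale, scaling between arrays, dim genes, probe set averaging, array weights, a mean-variance trend, the replicate number as a block and leaving out each array.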

Additional observations from a re-analysis of the deposited data

How the results depend on the processing

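The number of genes with an adjusted p under 0.05 was 0 of 17325 in the main fit, 1680 without *Mef2c*-deficient replicate 1, 1894 without replicate 2, 6523 with housekeeping centring and 0 in the other settings. Of the 37 genes, 3 fell after further quantile normalization, 3 after cyclic loess and 2 with housekeeping centring, where 1 rose. Leaving out 1 array gave 6 to 20 fallen and 0 to 1 risen. The median log2 fold change of the set was −0.45, −0.40 and −0.35 under these scalings, and *Ranbp2* turned to 0.012 after cyclic loess. The pathway lists, with 11 fallen and 2 risen genes, had 22 fallen at a 2-fold difference of the deposited values, 5 after quantile normalization, 3 after cyclic loess and 3 with housekeeping centring, and 7 to 20 with 1 array left out. Risen genes of these lists numbered 1, 1 and 5 under the same scalings, 1 without dim genes, 0 with array weights, 1 with the replicate block, and 1 to 2 with 1 array left out. Over all genes, 16.7% fell at a 2-fold difference of the deposited values. The main 1835 fallen (10.6%) and 752 risen became 890 (5.14%) and 823 after quantile normalization, and 883 (5.1%) and 620 after cyclic loess. They became 392 (2.26%) and 4588 with housekeeping centring, and 1656 and 147 among 8663 genes without dim ones. The cause was not tested. The labels do not say that equal replicate numbers mark a shared batch. Deviations from the group means of same-numbered arrays correlated at 0.12 and −0.01. The deviations of the 2 *Mef2c*-deficient arrays are exact opposites by construction, so these correlations cannot decide whether a batch was shared. With the replicate block, 15 of the 37 fell, against 8.77% of all genes. Median centring gave 17, against 11.6% of all genes, and array weights 13, against 8.33%. A mean-variance trend or averaged probe sets gave 16 each, against 10.5% of all genes in either. At an adjusted p of at most 0.10, 11 passed, all lower, against 8.16% of all genes that passed and were lower.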
